A study of Homo sapiens with 2 samples.

Results

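The hypoxia-inducible factor (HIF) pathway was described through 10 genes in H1299 cells, taken from the deposited tables by their NCBI gene IDs. They comprise the alpha subunits HIF1A and EPAS1, the beta subunit ARNT, the prolyl hydroxylases EGLN1 and EGLN2, and 5 genes known as HIF targets, VEGFA, BNIP3, BNIP3L, HILPDA and BHLHE40. All 10 of the 27685 gene IDs sought had a row in both tables, and all were among the 14078 measured genes, those that reached a TPM of 1 in either library. TPM is an abundance per transcript length that is relative to all transcripts of a library, so levels of different genes can be compared in it. H1299 is a line of human lung cancer cells of the non-small cell type, and the labels give both groups the same range of passages. One group was given 5 mM metformin, a biguanide drug for type 2 diabetes that acts on mitochondrial respiration, and the control group had no treatment. Each group was 1 RNA-seq library of whole cultures, the labels do not give the time of treatment and name no low-oxygen step for either group. Without replicates there is no test behind any difference, and each 95% interval covers only the counting of reads.

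The metformin library held an estimated 31.7 M read pairs and the control library 28.7 M. Keratins KRT8 and KRT18 and the filament gene VIM were abundant, at 521, 954 and 4962 TPM in metformin and 269, 553 and 4378 TPM in control, while EPCAM and CDH1, which encode epithelial adhesion proteins, lay at or below 0.253 TPM in both. Lung lineage, fibroblast and endothelial markers were all below 1 TPM, with SFTPB, SFTPC, PECAM1, CDH5, TEK and VWF listed at 0, so the lung lineage markers sought did not mark these cells. Of 5 leukocyte markers, CD68 alone was above 1 TPM, at 115 in metformin and 148 in control. In a bulk culture, fewer cells that express a gene and less RNA of it per cell cannot be told apart. The 6 epithelial markers summed to 1478 TPM in metformin and 823 TPM in control, and their part in the results below was not tested.

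HIF is a pair of an oxygen-sensitive alpha subunit and the stable beta subunit ARNT. When oxygen is present, EGLN enzymes hydroxylate prolines of the alpha subunits, the VHL ubiquitin ligase binds the hydroxylated protein and the proteasome degrades it. When oxygen is scarce, the alpha subunits accumulate, pair with ARNT and switch on genes for glycolysis, vessel growth, mitophagy and lipid storage. The oxygen signal thus acts mainly on protein stability, which mRNA levels do not report.

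Among the 10 genes EPAS1 had the largest ratio between the libraries, BHLHE40 was the next highest, and BNIP3 and HILPDA were the lowest. A gene was counted as higher or lower past a fold by its log2(TPM + 1) in metformin minus that in control. By this rule 1 of the 10 genes, EPAS1, was higher by 2-fold or more, beside 1.51% of all measured genes, and 0 were lower by 2-fold, beside 1.24%. At 1.5-fold, 2 of the 10, EPAS1 and BHLHE40, were higher, beside 5.40% of measured genes, and 0 were lower, beside 7.03%. Since 10 genes are few, 1 gene makes up 10.0% of them, so these counts say little about the genes as a group. The median log2 difference was 0.11 over the 10 genes, 6 of which lay above 0 and 4 below, and -0.08 over all measured genes. A difference of -0.0049 lay at percentile 59.2 of all measured genes, so most of them lay below 0.

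**Figure D1:**
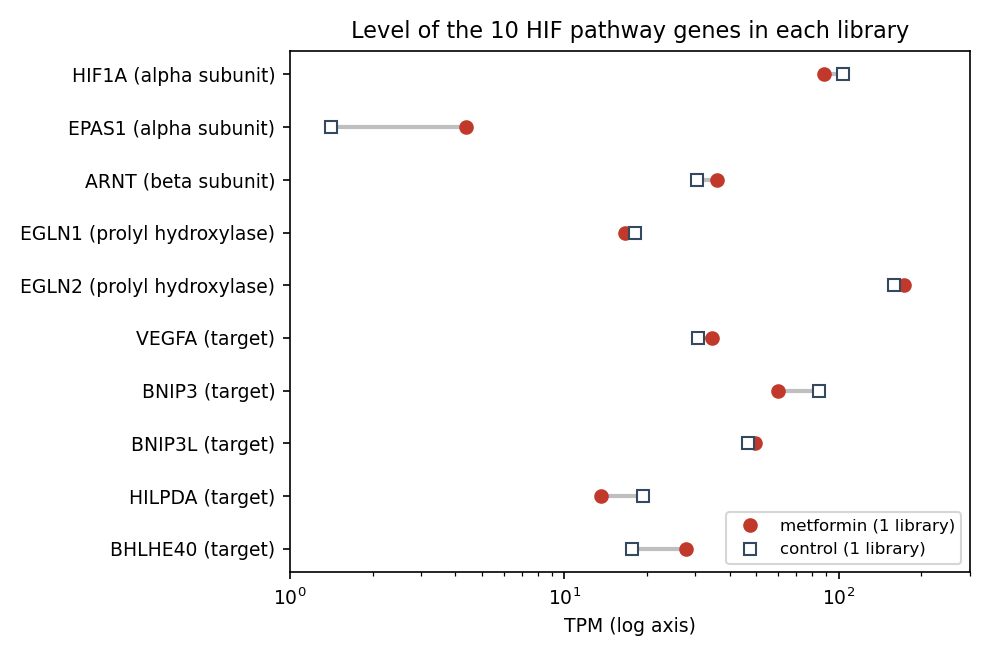
TPM on a log axis of the 10 genes in the metformin library (filled circles) and the control library (open squares), with the role of each gene in parentheses and a grey line joining its values. EGLN2 is at the right with 173 TPM in metformin and 159 TPM in control, EPAS1 at the left with 4.36 and 1.40 TPM, and the widest gap belongs to EPAS1.

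Of the alpha subunits, HIF1A was the abundant one. HIF1A (NCBI gene 3091; chromosome 14, 62162119 to 62214977 on the plus strand of hg19) was listed at 88.2 TPM in metformin and 104 TPM in control. Its level was thus 0.851 of control in the metformin library (95% counting interval 0.818 to 0.885). On the log2 scale the difference was -0.23, and it lay at -0.07 once the trend of all genes over GC content and transcript length was removed. It is an AT-rich transcript with a GC content of 39.4%. The antisense genes HIF1A-AS1 and HIF1A-AS2 were listed at 0.290 and 0.330 TPM in metformin and 0.454 and 0.219 TPM in control, and HIF1A-AS3 at 3.24 and 2.02 TPM. All 3 lie on the other strand of the same locus, and the sources used here do not say whether counting used the strand.

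EPAS1, which encodes HIF-2alpha and is best known from endothelium, kidney and clear cell kidney cancer, had the lowest level and the largest relative difference of the 10. EPAS1 (NCBI gene 2034; chromosome 2, 46524541 to 46613842, plus strand, hg19) was listed at 4.36 TPM in metformin and 1.40 TPM in control, a ratio of 3.11 (2.44 to 3.98). These levels rested on an estimated 310 read pairs in metformin and 88 in control. The mean read depth over its exons was 12.1 in metformin and 3.46 in control, and no other named gene of the tables overlaps the locus. On the log2(TPM + 1) scale the difference was 1.16, at percentile 99.1 of all measured genes. Among the 2757 genes with a mean of 1 to 5 TPM, the range that holds EPAS1, 3.05% were higher by 2-fold or more, beside 1.51% of all measured genes. The call past 2-fold was lost with a pseudocount of 5 (difference 0.55) and with FPKM in place of TPM (0.86).

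With HIF1A lower and EPAS1 higher, the balance between their transcripts differed. HIF1A mRNA was 20.2 times as abundant as EPAS1 mRNA in metformin and 73.8 times in control. EPAS1 made up 4.71% of the summed TPM of both subunits in metformin and 1.34% in control. The sum itself was 92.6 TPM in metformin and 105 TPM in control, so HIF1A remained the main alpha subunit transcript in each library.

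ARNT, the partner that every HIF alpha subunit needs to bind DNA, was listed at 35.9 TPM in metformin and 30.4 TPM in control, a ratio of 1.18 (1.11 to 1.26). It lies on chromosome 1 at 150782181 to 150849244 on the minus strand (NCBI gene 405). HIF1A was thus 2.46 times as abundant as ARNT in metformin and 3.41 times in control. Of 11 other factors of the same bHLH-PAS class, 7 were measured, which are few. None was higher or lower by 1.5-fold, and 87.6% of all measured genes were likewise within 1.5-fold. The median difference of the 7 was 0.05. That median was -0.11 with the trend over GC content and length removed and -0.09 with a minimum of 5 TPM. BMAL1, a core clock factor, had the highest ratio at 1.15 (0.9997 to 1.33), and its partner CLOCK the lowest at 0.758 (0.704 to 0.816). HIF3A was listed at 0 in both libraries and ARNT2 at 0.122 TPM in metformin and 0.204 TPM in control; both were picked once their values were known.

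EGLN2, which encodes the hydroxylase PHD1, was the most abundant of the 10 genes in each library, above 93.5% of measured genes in metformin and 92.3% in control. EGLN2 (NCBI gene 112398; chromosome 19, 41305048 to 41314346, plus strand) was listed at 173 TPM in metformin and 159 TPM in control, a ratio of 1.09 (1.05 to 1.14). Its transcript is GC-rich, at 63.8%, and its log2 difference turned from 0.12 to -0.04 once the trend over GC content and length was removed. The read-through model RAB4B-EGLN2, on the same strand, was listed at 3.03 TPM in metformin and 1.74 TPM in control, and summing it with EGLN2 gave a ratio of 1.10. EGLN1, which encodes PHD2, the main hydroxylase of HIF1A in most cells, was listed at 16.6 TPM in metformin and 18.1 TPM in control. It lies on chromosome 1 at 231499497 to 231560790 on the minus strand (NCBI gene 54583). Its ratio of 0.917 had an interval that included 1 (0.838 to 1.003), so it was not distinguishable from an equal level at this depth. EGLN2 mRNA was 10.4 times as abundant as EGLN1 mRNA in metformin and 8.79 times in control. EGLN3, the third hydroxylase and itself a known HIF target, picked with its values known, was near the detection limit, with 0.107 TPM in metformin and 0.196 TPM in control.

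Around these enzymes, the list of oxygen sensing, degradation and cofactor genes had 18 of 20 genes measured. None was higher or lower by 1.5-fold, beside 5.40% and 7.03% of all measured genes. Below 0 lay 14 and above it 4, and most measured genes lay below 0 as well. The median difference was -0.10, beside -0.08 for all measured genes. CITED2, which competes with HIF for the coactivators p300 and CBP, had the highest ratio, 1.35 (1.25 to 1.45), and was listed at 57.5 TPM in metformin and 42.7 TPM in control. VHL, the substrate receptor of the ligase, was listed at 38.6 TPM in metformin and 33.8 TPM in control, a ratio of 1.14 (1.07 to 1.21). CUL2, the scaffold of the same ligase, was the lowest at 0.668 of control (0.623 to 0.717), followed by HSP90AA1, a chaperone that stabilises HIF1A among many clients, at 0.697 (0.692 to 0.701). P4HTM was listed at 0 in both libraries.

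**Figure D2:**
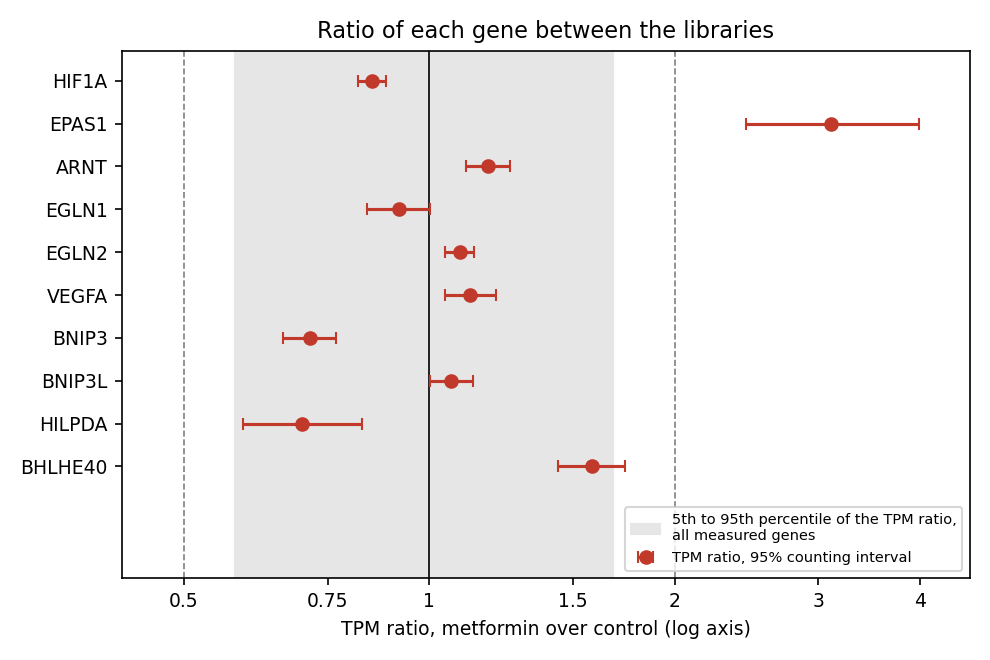
Ratio of TPM in metformin over control on a log axis for each of the 10 genes, with the 95% counting interval as bars, dashed lines at 2-fold in either direction and grey shading from the 5th to the 95th percentile of the ratio over all measured genes. EPAS1 at 3.11 lies right of the shading and of the 2-fold line, and the other 9 genes lie within the shading, from HILPDA at 0.699 to BHLHE40 at 1.58.

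The 5 targets did not share a direction. BHLHE40 was the highest, VEGFA and BNIP3L were close to their control values, and BNIP3 and HILPDA were lower. BHLHE40, also called DEC1, encodes a transcriptional repressor that acts on clock and metabolic genes and is induced by hypoxia among other stimuli. BHLHE40 (NCBI gene 8553; chromosome 3, 5021097 to 5026865, plus strand) was listed at 27.8 TPM in metformin and 17.6 TPM in control, a ratio of 1.58 (1.44 to 1.74) from an estimated 1207 and 675 read pairs. Its log2 difference of 0.63 lay at percentile 95.4 of measured genes. It was above 0 in all 10 alternatives tried, from 0.54 to 0.82. Changes of pseudocount or minimum TPM could not have turned its sign. Its paralog BHLHE41, a repressor of the same family picked with its values known, was listed at 6.63 TPM in metformin and 7.17 TPM in control, a ratio of 0.925 with an interval that included 1 (0.792 to 1.08). None of the 10 measured clock genes of 11 was past 1.5-fold, and 87.6% of all measured genes were likewise within it. The clock genes lay between TEF at 1.40 (1.17 to 1.66) and PER2 at 0.598 (0.476 to 0.749), and their median difference was 0.04. PER2 stood at 1.52 TPM in metformin and 2.54 TPM in control, so its difference on the log2(TPM + 1) scale was -0.49, short of 1.5-fold.

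BNIP3 and BNIP3L, also called NIX, encode related mitophagy receptors of the outer mitochondrial membrane that bind LC3 and GABARAP proteins. BNIP3 (NCBI gene 664; chromosome 10, 133781187 to 133795517, minus strand) was listed at 60.2 TPM in metformin and 84.4 TPM in control, a ratio of 0.713 (0.662 to 0.768). BNIP3L (NCBI gene 665; chromosome 8, 26240523 to 26270645, plus strand) was listed at 49.5 TPM in metformin and 46.5 TPM in control, a ratio of 1.06 (1.002 to 1.13). The intervals of the ratios did not overlap, and BNIP3 was 1.22 times as abundant as BNIP3L in metformin and 1.81 times in control. BNIP3L made up 45.1% of the summed TPM of both receptors in metformin and 35.5% in control. The sum was 110 TPM in metformin and 131 TPM in control. With the trend over GC content and length removed, the log2 differences were -0.36 for BNIP3 and 0.30 for BNIP3L, so the order was kept.

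Of 14 partners of these receptors in mitophagy, 13 were measured and 1 was higher by 1.5-fold, MAP1LC3A, which encodes an LC3 protein, at 29.3 TPM in metformin and 18.4 TPM in control, a ratio of 1.59 (1.35 to 1.89). That was 7.69% of the list, beside 5.40% of all measured genes, and the count was 0 with a pseudocount of 5 and 2 with centring, trimmed mean scaling or unscaled coverage. FUNDC1, another mitophagy receptor linked to hypoxia, was the lowest, at 38.1 TPM in metformin and 48.9 TPM in control, a ratio of 0.779 (0.693 to 0.875). None was past 2-fold, beside 1.51% higher and 1.24% lower of all measured genes, and the median difference of the list was 0.07.

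HILPDA encodes a small lipid droplet protein that inhibits the triglyceride lipase ATGL. HILPDA (NCBI gene 29923; chromosome 7, 128095884 to 128098472, plus strand) was listed at 13.6 TPM in metformin and 19.4 TPM in control, a ratio of 0.699 (0.591 to 0.826). Relative to its ratio the interval is the widest among the 5 targets, and it rested on an estimated 255 read pairs in metformin and 322 in control. BNIP3 and HILPDA had nearly equal ratios, and BNIP3 was 4.44 times as abundant as HILPDA in metformin and 4.35 times in control. Among 11 lipid droplet genes, 8 were measured, none was past 1.5-fold and the median difference was 0.07. Of all measured genes, 87.6% were within 1.5-fold. By the log2 difference PNPLA3, a lipase relative of ATGL, was the highest, at a ratio of 1.42 (1.07 to 1.88), with 3.55 TPM in metformin and 2.50 TPM in control, and G0S2, another ATGL inhibitor, was the lowest, at a ratio of 0.849 (0.811 to 0.888), with 313 TPM in metformin and 368 TPM in control.

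VEGFA, the growth factor for blood vessels that is a classical HIF target, was listed at 34.6 TPM in metformin and 30.8 TPM in control (NCBI gene 7422; chromosome 6, 43737946 to 43754223, plus strand). The ratio was 1.12 (1.04 to 1.21), and the log2 difference of 0.16 lay at percentile 76.2 of measured genes. Of 9 other VEGF ligands and receptors, 6 were measured and none was past 1.5-fold, as 87.6% of all measured genes were not. The median difference of the list was -0.05, and 0.04 with centring. VEGFB, picked with its values known, had a ratio of 0.878 with an interval that did not include 1 (0.777 to 0.992). The interval did include 0.941, the fold by which centring shifts all genes. VEGFC, a ligand for lymphatic vessels, was listed at 8.75 TPM in metformin and 8.02 TPM in control, and FLT4, its receptor, at 3.19 TPM in metformin and 3.78 TPM in control, each with an interval of the ratio that included 1 (0.910 to 1.31 for VEGFC and 0.709 to 1.01 for FLT4).

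By level, the order of the genes in metformin was EGLN2, HIF1A, BNIP3, BNIP3L, ARNT, VEGFA, BHLHE40, EGLN1, HILPDA and EPAS1. In control it was EGLN2, HIF1A, BNIP3, BNIP3L, VEGFA, ARNT, HILPDA, EGLN1, BHLHE40 and EPAS1. The first 4 genes and the last held the same place in both libraries. ARNT and VEGFA were neighbours whose counting intervals overlapped in both libraries, at 34.4 to 37.4 and 32.9 to 36.2 TPM in metformin and at 29.0 to 31.8 and 29.2 to 32.5 TPM in control. In control, HILPDA, EGLN1 and BHLHE40 also overlapped, whereas in metformin BHLHE40, at 26.3 to 29.4 TPM, stood above EGLN1, at 15.5 to 17.6 TPM, and EGLN1 above HILPDA, at 11.9 to 15.3 TPM.

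**Figure D3:**
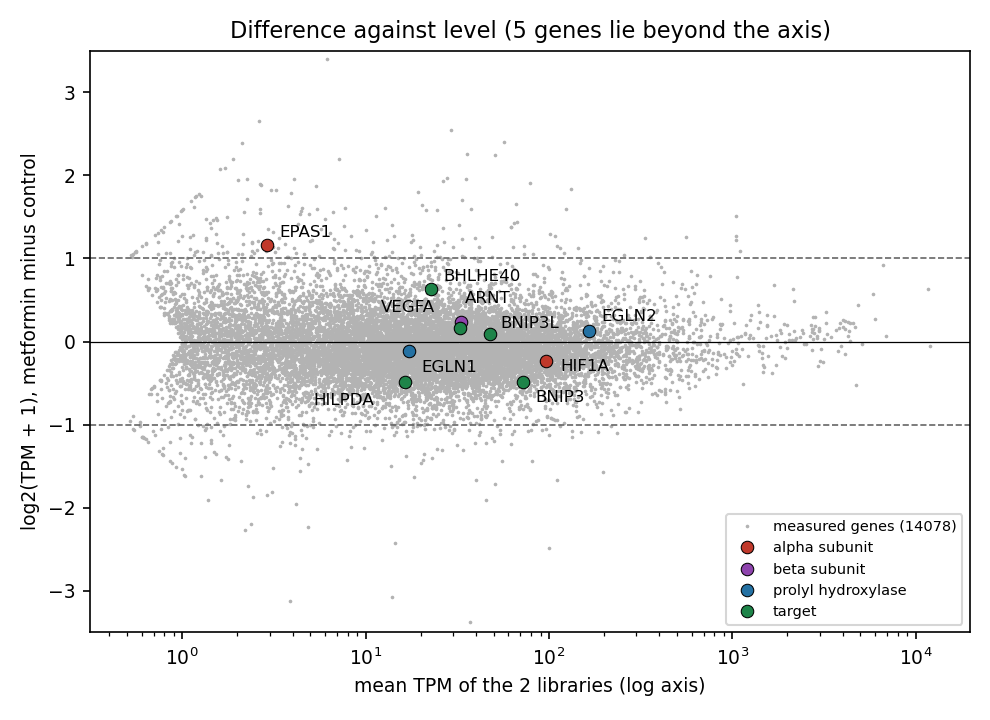
Log2(TPM + 1) in metformin minus control against the mean TPM of both libraries on a log axis for the 14078 measured genes (grey) and the 10 HIF pathway genes (coloured by role), with dashed lines at 2-fold. EPAS1 lies above the upper line at a low level, and the other 9 genes lie inside the band at higher levels; 5 genes lie beyond the axis.

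HIF binds DNA at a short core, ACGTG or GCGTG, in the hypoxia response elements of its targets. The 250 bases before the start of a gene were searched for these letters on both strands, in RefSeq promoter sequences of build GRCh38.p14, whose coordinates differ from the hg19 positions of the deposited tables. Promoters of 7 of the 10 genes were searched, and 6 of these held at least 1 core. Those of VEGFA, BNIP3L and HILPDA were not searched, so their cores are not known here. A core was found in 43.2% of all 35116 promoters of the same length and in 55.8% of those of measured genes, so its presence is common. These shares count promoter entries, whereas the 10 genes were counted by gene. Shown are the promoters of EPAS1, with the largest ratio, and of the searched targets BNIP3 and BHLHE40, with ratios on opposite sides of 1. They are written 5′ to 3′ on the gene's strand, with each ACGTG or GCGTG core of either strand in capitals, so that a core on the other strand reads CACGT or CACGC.
EPAS1, chr2:46297157-46297406, plus strand: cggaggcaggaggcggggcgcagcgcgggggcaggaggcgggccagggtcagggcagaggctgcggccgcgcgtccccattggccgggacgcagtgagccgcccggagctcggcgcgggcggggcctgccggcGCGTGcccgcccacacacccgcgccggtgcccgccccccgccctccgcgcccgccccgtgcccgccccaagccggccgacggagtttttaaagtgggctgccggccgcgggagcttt
BNIP3, chr10:131981924-131982173, minus strand: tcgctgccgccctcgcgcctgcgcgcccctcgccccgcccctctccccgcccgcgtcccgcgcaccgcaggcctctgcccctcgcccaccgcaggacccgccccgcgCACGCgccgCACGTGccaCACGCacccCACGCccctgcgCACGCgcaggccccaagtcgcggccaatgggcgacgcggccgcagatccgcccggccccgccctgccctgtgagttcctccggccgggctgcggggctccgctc
BHLHE40, chr3:4979187-4979436, plus strand: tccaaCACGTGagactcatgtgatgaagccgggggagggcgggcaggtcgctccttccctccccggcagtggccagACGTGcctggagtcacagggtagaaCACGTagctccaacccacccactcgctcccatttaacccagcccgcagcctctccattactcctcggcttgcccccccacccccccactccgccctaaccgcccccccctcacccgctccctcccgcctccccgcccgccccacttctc
The BNIP3 promoter held 6 cores, 2 of ACGTG and 4 of GCGTG, a number reached by 0.646% of all promoters. The BHLHE40 promoter held 4, all of ACGTG, a number reached by 3.22%. In each of them 2 of the ACGTG matches are the overlapping strands of a palindrome, CACGTG, the E-box that many other bHLH factors, DEC1 among them, also bind, and this motif occurs in 6.34% of all promoters. The EPAS1 promoter held 1 core, GCGTG. The shares of 0.646% and 3.22% were not taken among promoters of measured genes, which hold a core more often. BNIP3, lower in the metformin library, and BHLHE40, higher in it, were the only targets searched, and both carry cores in this window. A link between cores and ratios was not tested. A match describes the letters and does not show that HIF was bound.

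The list of other HIF targets, outside glycolysis, held genes on both sides of 0. Of its 45 genes 37 were measured, 16 lay above 0 and 21 below, and most measured genes lay below 0 as well. The median difference was -0.06, beside -0.08 over all measured genes, and 0.02 with centring or trimmed mean scaling. DDIT4, a mTORC1 inhibitor that hypoxia, amino acid stress and other signals induce, was higher by 2-fold or more, at 186 TPM in metformin and 60.8 TPM in control. That was 2.70% of the list, beside 1.51% of all measured genes, and none was lower by 2-fold, beside 1.24%. At 1.5-fold, 5 were higher, which was 13.5% of the list, beside 5.40% of all measured genes. Besides DDIT4 these included HMOX1, heme oxygenase, at a ratio of 1.93 (1.77 to 2.12), and, picked with their values known, TFRC, the transferrin receptor, at 1.73, and NFIL3, a transcription factor of the clock and immune cells, at 1.58. These 4 genes are known to respond to other signals than HIF as well. Lower by 1.5-fold was 1 gene, 2.70% of the list beside 7.03% of all measured genes. This was ANGPTL4, an inhibitor of lipoprotein lipase, at 18.5 TPM in metformin and 33.4 TPM in control, a ratio of 0.553 (0.492 to 0.621). The next lowest by the log2 difference, at -0.56, was ERO1A, an oxidase of the endoplasmic reticulum, at a ratio of 0.672 (0.636 to 0.711). CA9 and CA12, carbonic anhydrases often used as hypoxia markers and picked here with their values known, stood at 0 in both libraries, and EPO at 0.164 TPM in metformin and 0.246 TPM in control.

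Among 21 glycolytic HIF targets, 20 were measured, 15 lay below 0, as did most measured genes, and 5 above. The median difference was -0.05, beside -0.08 over all measured genes. It was 0.04 with centring or trimmed mean scaling, 0.11 with unscaled coverage and -0.15 with the trend over GC content and length removed. None was past 2-fold, beside 1.51% higher and 1.24% lower of all measured genes. Lower by 1.5-fold was 1 gene, 5.0% of the list beside 7.03% of all measured genes. This was PFKFB4, which makes the activator of phosphofructokinase, at 7.88 TPM in metformin and 13.1 TPM in control. Its ratio was 0.600 (0.525 to 0.684), and the call was lost with a pseudocount of 5, FPKM, unscaled coverage or centring. PGK1, phosphoglycerate kinase, was listed at 535 TPM in metformin and 715 TPM in control, a ratio of 0.748 (0.738 to 0.759), near that of BNIP3. At the other end were PFKL, the liver-type phosphofructokinase, at a ratio of 1.21 (1.16 to 1.27), and PKM, pyruvate kinase, at 1.15 (1.14 to 1.16).

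**Figure D4:**
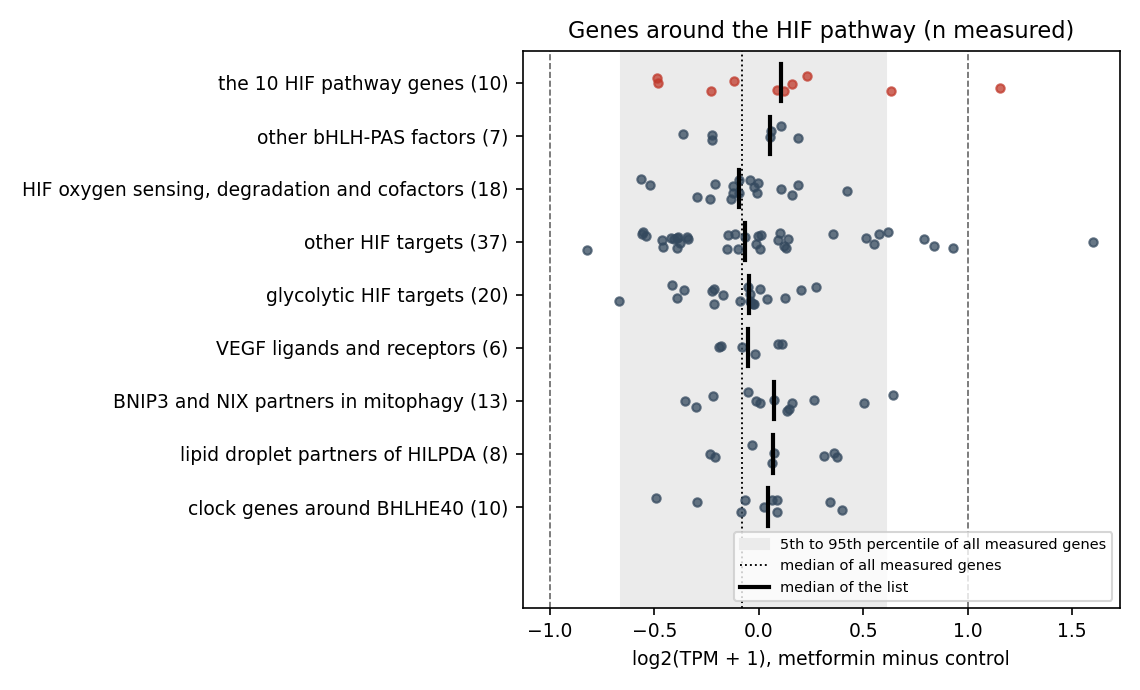
Log2(TPM + 1) in metformin minus control of the measured genes of each list (1 point a gene, number measured in parentheses), with black bars at list medians, a dotted line at the median of all measured genes (-0.08), grey shading from their 5th to 95th percentile (-0.66 to 0.61) and dashed lines at 2-fold. EPAS1 and, among the other HIF targets, DDIT4 lie beyond the upper dashed line, and the list medians lie between -0.10 and 0.11.

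The scaling of the libraries bears on small differences. Genes that reached 10 TPM in each library had a median log2 difference of -0.09, and centring on it made 270 measured genes higher and 114 lower by 2-fold, against 213 and 175 as deposited. Centring left the counts of the 10 genes past 1.5-fold and 2-fold unchanged and raised their median difference to 0.19. EGLN1 was the gene whose sign turned with coverage unscaled between libraries, at 0.05 against -0.12 in TPM.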

How the data were processed

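RNA of H1299 cells was sequenced as 1 metformin and 1 control library with a stranded mRNA kit, per the labels' protocols. Bowtie2 and hg19 are named per the labels' protocols, and Trimmomatic 0.38, HISAT2, hg19 and GRCh37 per the submitters' processing notes. What program computed the abundances, and whether by strand, is not stated there. TPM, summing to 1000000 per library, FPKM and coverage, a signal of mean read depth over exons, were computed by the authors and deposited per gene ID.

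Symbols came from a RefSeq gene table of assembly GRCh38, which matched 27559 of 27685 IDs; the values of 353 IDs with several rows were summed. The difference of log2(TPM + 1), with a pseudocount of 1, was taken per gene. Read pairs were estimated from FPKM, the largest ratio of coverage to FPKM (6.40 Gb in metformin and 5.80 Gb in control), 202 bases a pair and GENCODE 44 canonical transcript lengths. Ratio intervals are exact (Clopper-Pearson) and level intervals exact Poisson, at 95%, for counting error only; reads are not deduplicated molecules. GC content and length, known for 93.7% of measured genes, entered a quadratic trend. A single library a group allowed no test. Steps were tested on simulated data with Python 3.11.15 and scipy 1.17.1. The 10 genes and the lists were chosen with earlier results of these data known. From each list the genes with the highest and lowest difference were named, 2 at each end for lists of 20 or more. FUT11 and NDUFA4L2 of the target list are not analysed here. Some genes of the lists are not reported here.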

Additional observations from a re-analysis of the deposited data

How the results depend on the processing

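No paired analysis was possible because each group is 1 library, and no replicate could be left out. In 10 alternatives (9 for EPAS1), 8 of the 10 genes kept the sign of their difference, and the exceptions were EGLN1 with unscaled coverage (0.05) and EGLN2 without the trend over GC content and length (-0.04). Changes of pseudocount or minimum TPM could not turn a sign, and summing overlapping genes left members without an overlap unchanged. Keeping the sign in those alternatives is therefore no sign of robustness. The number of the 10 genes higher by 2-fold was 0 rather than 1 with a pseudocount of 5, with FPKM and with a minimum of 5 TPM. The number higher by 1.5-fold was 0 rather than 2 with a pseudocount of 5 and 1 with a minimum of 5 TPM, which EPAS1 does not reach. A larger pseudocount shrinks low genes by construction, and FPKM values are smaller than TPM values, so the pseudocount of 1 weighs more there. Their median ranged from 0.04 without the trend to 0.28 with unscaled coverage. For the other HIF targets, 3 were higher by 2-fold and 8 by 1.5-fold with unscaled coverage, and the median moved to 0.11. Unscaled coverage also carries library depth, which was greater in metformin by 0.14 on the log2 scale. The part of depth in these counts was not tested. With centring or trimmed mean scaling 2 of the other HIF targets were higher by 2-fold and 8 by 1.5-fold. With a pseudocount of 0.1 and without the trend, 2 of them were lower by 1.5-fold. Over all genes, the count higher by 2-fold ranged from 58 with a pseudocount of 5 to 447 with unscaled coverage, and the count lower from 45 with a pseudocount of 5 to 353 with one of 0.1. At 1.5-fold the counts ranged from 320 to 1468 higher and from 438 to 1325 lower. Depth limits EPAS1 most among the 10 genes, with 88 read pairs in control.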
